A study of Mus musculus with 6 samples.

Results

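The clustered protocadherins were measured in the primary somatosensory cortex (S1) of mice at postnatal day 7. Their probes were taken from the arrays by name: every probe that was not a control and whose gene name was Pcdha, Pcdhb or Pcdhg followed by an isoform number, or by a letter and a number, was a member. This rule found 35 genes, read by 38 probes, among 35715 gene names on 55681 probes, with 9 probes of 7 genes in the alpha cluster, 22 probes of 22 genes in the beta cluster and 7 probes of 6 genes in the gamma cluster. RefSeq lists 14 isoform genes in alpha, 22 in beta and 22 in gamma, so the beta cluster was covered by 1 probe per gene, and the other isoforms of alpha and gamma were not analysed here. All 38 probes passed the filter on dim signal, which required that 3 or more of the 6 arrays show the spot well above background. For 36 of them all 6 arrays did. The other two were those of Pcdhb11 and Pcdhga5.

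Clustered protocadherins are cell surface adhesion proteins of the nervous system. Single neurons express small and differing combinations of isoforms, and matching combinations bind each other between membranes, which lets a neuron tell its own branches from those of other cells. In the alpha and gamma clusters each isoform has its own first exon, which encodes the extracellular part and is spliced to constant exons shared by the whole cluster. Beta genes consist of their own exon alone. The choice of isoform depends on looping between promoters and distant enhancers through CTCF and cohesin, and on DNA methylation. The last isoforms of the alpha and gamma clusters, called C types, are less subject to random choice than the others.

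The arrays labelled cKO came from 3 S1 samples of Lhx2f/f;Nex-Cre mice, in which Cre is made from the Nex (Neurod6) locus in young excitatory cortical neurons and acts there on floxed Lhx2, while other cell types keep the gene. The control arrays came from 3 S1 samples of Lhx2f/f mice without Cre, which the sample titles call wild type. All samples were C57BL/6 and the floxed alleles were shared by both groups. Nothing in the labels states that each sample is a different animal, so the p-values reflect the spread among the 6 samples, which may be technical in part. Control replicate 2 lacked the Y-linked signal seen in control replicates 1 and 3, so it was not the same material as these.

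Between 86.7% and 91.1% of spots were well above background on the 6 single-colour arrays, and 0 were saturated. The Lhx2 probe was brighter on the arrays labelled cKO, at 4.59 ± 0.17 against 3.48 ± 0.04 in control (SD, n = 3 each; limma adjusted p = 0.089). These levels, like all others here, are log2 signals less the 75th percentile of the same array. Whether the probe lies in the deleted part of Lhx2 was not worked out, and one outside it would not test the deletion. The direction goes against a loss of transcript, so every direction given here rests on the labels. The probe of Neurod6, the locus that drives Cre, was also brighter on all 3 arrays labelled cKO, at 2.504 ± 0.197 against 2.128 ± 0.116 in control (SD, n = 3 each; limma adjusted p = 0.62). Of 10 excitatory neuron markers of the cortex, all were well above background on every array. Y-linked signal was present on control replicates 1 and 3 and absent from the other 4 arrays. Sex was therefore not balanced between the groups, and the main test had no term for it. In bulk tissue, fewer cells of a type and less RNA per cell cannot be told apart.

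No clustered protocadherin probe passed the test between the arrays labelled cKO and control. Each probe was tested with limma over all 50030 tested probes, where the share of probes passing an adjusted p of 0.05 was itself 0% (0 probes, with the smallest adjusted p at 0.058). Among the 38 members the smallest adjusted p was 0.50. At an unadjusted p under 0.05 stood 1 of 38 members, against 6.8% of all tested probes. It was higher on the arrays labelled cKO and 0 were lower, where 2.9% of all tested probes were higher and 3.9% lower. The 2 groups of arrays did not overlap for 4 of the 38 members, against 12.7% of all tested probes. Member differences ran from -0.23 to 0.74 on the log2 scale, the upper end being Pcdhb11, which was well above background on 1 of 3 control arrays. The next highest was 0.32. Their median was 0.09, beside 0.02 over all tested probes, with 30 of 38 members above 0 and 55.7% of all tested probes above 0.

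The intervals around these differences were about as wide for the members as for all tested probes. Their median half-width was 0.325 on the log2 scale for the members and 0.322 for all tested probes. For 37 of 38 probes the 95% interval of the difference lay within a 2-fold change in either direction, and for 31 of 38 it lay within 1.5-fold. Over all tested probes these shares were 93.1% and 70.2%. The exception at 2-fold was Pcdhb11, described with the beta cluster. The median SD between arrays of a group was 0.17 on the log2 scale for the members and 0.17 for all tested probes. An interval that excludes 0 was not enough to pass the threshold adjusted over all probes: that of one Pcdha8 probe did, and it did not pass.

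**Figure D1:**
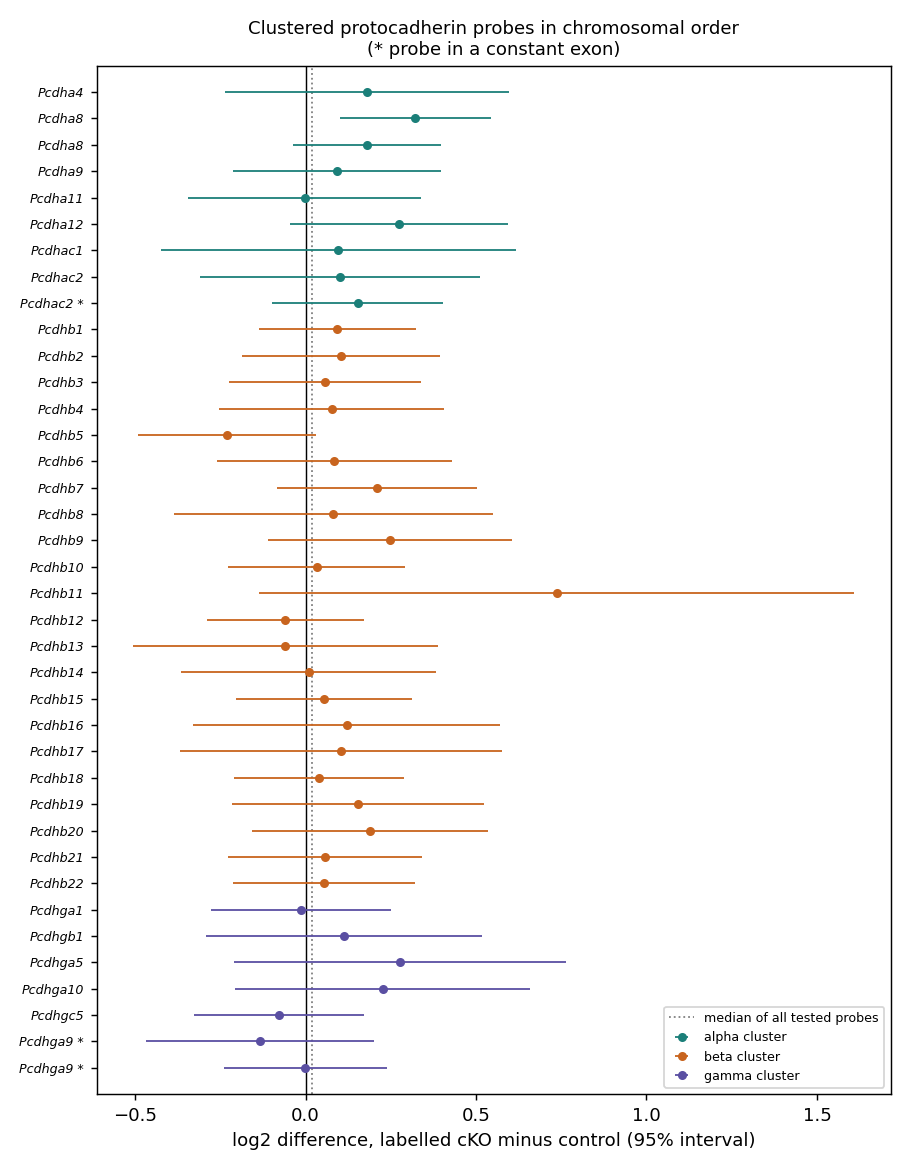
Log2 difference between the arrays labelled cKO and control (x axis) for the 38 member probes, in chromosomal order from top to bottom, with bars for the 95% interval and a dotted line at the median of all tested probes (0.02). Of the 38 intervals, 37 include 0, and the one that does not belongs to the Pcdha8 probe with a difference of 0.32.

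Alpha cluster probes spanned 233 kb of chromosome 18 (37114742 to 37347294 on mm9, the build of the files). Their differences had a median of 0.15, and 8 of 9 were above 0. Groups did not overlap for 3 of the 9 probes, each higher on the arrays labelled cKO, where 6.79% of all tested probes were higher without overlap. These were both probes of Pcdha8 and the probe of Pcdha12.

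Pcdha8 encodes an alpha isoform with its own first exon, and its probe at 37153996 to 37154055 had the smallest p of all members. It read -2.92, -2.84 and -2.85 on the arrays labelled cKO, against -3.12, -3.29 and -3.16 in control. All 3 arrays labelled cKO lay above every control array, and the gap between the means exceeded the range within either group. The probe was 1.25-fold higher (log2 difference 0.32, SE 0.09, 95% interval 0.10 to 0.54, adjusted p = 0.50), which did not pass. The other Pcdha8 probe, at 37154205 to 37154264, also has transcripts of Pcdha7 among its accessions, so it cannot be assigned to 1 isoform. It read 1.93, 2.03 and 1.89 on the arrays labelled cKO, against 1.83, 1.73 and 1.74 in control. Again the groups did not overlap, with a log2 difference of 0.18 (95% interval -0.04 to 0.40, adjusted p = 0.84).

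Pcdha12, an alpha isoform further along the cluster, read -0.26, -0.02 and -0.40 on the arrays labelled cKO, against -0.42, -0.43 and -0.66 in control. The lowest array labelled cKO lay only just above the highest control array. The log2 difference was 0.27 (95% interval -0.05 to 0.59, adjusted p = 0.82), and 0.17 without cKO replicate 2. Within slide row 1, where 1 array of each group lay side by side, the difference for Pcdha12 was 0.40, and within row 2 it was 0.03. For the Pcdha8 probe of its own exon the same differences were 0.28 and 0.44.

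The C types of the alpha cluster overlapped between groups. Pcdhac1 read -2.41, -3.17 and -2.59 on the arrays labelled cKO, against -3.06, -2.72 and -2.68 in control. Its highest and its lowest value both came from arrays labelled cKO (log2 difference 0.10, 95% interval -0.42 to 0.62). Pcdhac2, the isoform next to the constant exons and known for its expression in serotonergic neurons, read -0.53, -0.37 and -0.90 in its own exon on the arrays labelled cKO, against -0.56, -0.60 and -0.94 in control. Replicate 3 was the lowest in both groups (log2 difference 0.10, 95% interval -0.31 to 0.51).

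One probe that carries the name Pcdhac2 lies in the constant part (37347235 to 37347294), past all probes of single isoforms, and its accessions name Pcdha4, Pcdha9, Pcdhac1 and Pcdhac2. It was therefore taken to read transcripts of more than 1 alpha isoform, which was not checked against exon annotation. Its signal was 4.69, 4.77 and 4.64 on the arrays labelled cKO, against 4.65, 4.59 and 4.40 in control. The groups overlapped by 1 array, and the log2 difference was 0.15 (95% interval -0.10 to 0.40, adjusted p = 0.94). Pcdha4, the first of the measured alpha isoforms, read -0.36, -0.18 and -0.67 on the arrays labelled cKO, against -0.39, -0.52 and -0.85 in control. Replicate 3 was again the lowest in both groups, and the log2 difference was 0.18 (95% interval -0.24 to 0.60). Leaving out 1 array moved the Pcdha4 difference between 0.05 (without control replicate 3) and 0.32 (without cKO replicate 3). Pcdha9 and Pcdha11 had differences of 0.09 and -0.0018. Pcdha11 was lowest in cKO replicate 1, at -1.79, and highest in cKO replicate 2, at -1.38, so the arrays labelled cKO held both its extremes.

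**Figure D2:**
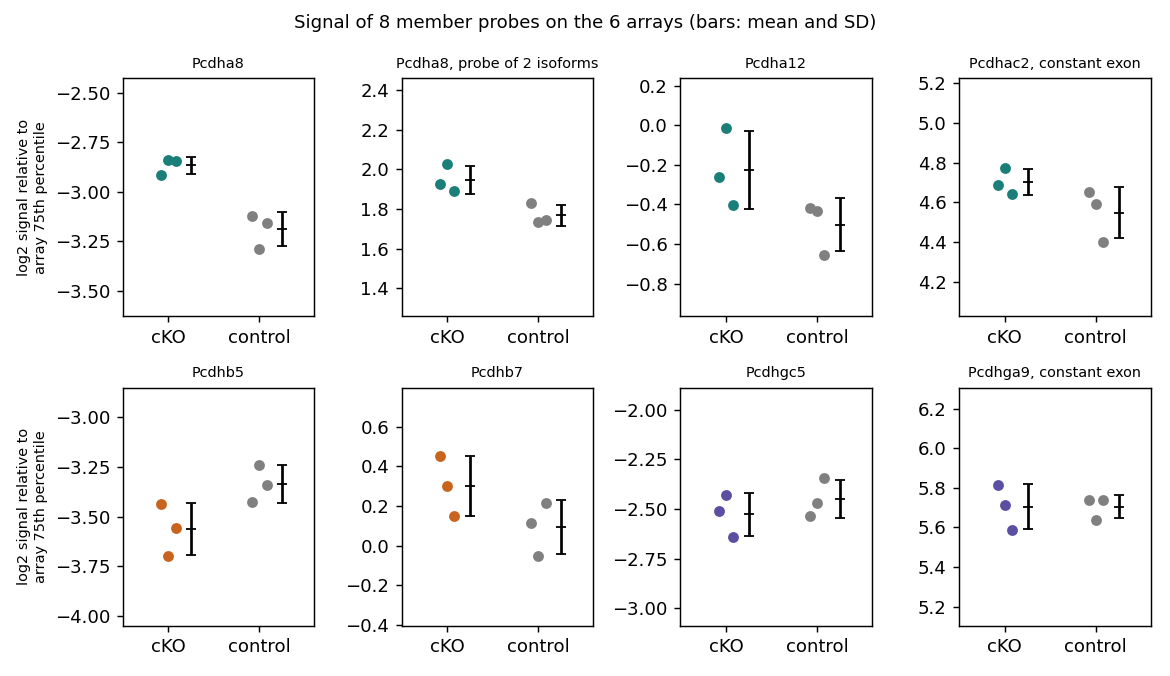
Log2 signal less the array's 75th percentile (y axis, all panels 1.2 units high) for 8 member probes on the 3 arrays labelled cKO (coloured) and the 3 control arrays (grey), with mean and SD. Groups are apart for both Pcdha8 probes, Pcdha12 and Pcdhb5, and overlap for the constant exon probes, Pcdhb7 and Pcdhgc5. None of the 8 passed the test.

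Beta cluster probes spanned 254 kb (37427011 to 37680728) and had a median difference of 0.08, with 19 of 22 above 0. That count was 9 of 22 without control replicate 3, 9 of 22 without both arrays with Y-linked signal and 8 of 22 with array weights. At an unadjusted p under 0.05, 0 of 22 were higher and 0 lower, beside 2.9% and 3.9% of all tested probes. The one beta probe whose groups did not overlap was that of Pcdhb5, with 5.87% of all tested probes lower without overlap. Pcdhb5 read -3.44, -3.70 and -3.56 on the arrays labelled cKO, against -3.43, -3.24 and -3.34 in control. All 3 arrays labelled cKO lay below every control array, the closest pair being cKO replicate 1 and control replicate 1. Its log2 difference was -0.23 (95% interval -0.49 to 0.03, adjusted p = 0.81), opposite in sign to most of its cluster.

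Pcdhb11 had the largest estimate of all members and the widest interval. It read -4.87, -5.32 and -5.50 on the arrays labelled cKO, against -6.16, -5.16 and -6.57 in control. The spot was well above background on all 3 arrays labelled cKO and on control replicate 2 alone, which lay above 2 of the arrays labelled cKO. The log2 difference was 0.74 (95% interval -0.14 to 1.61, adjusted p = 0.82). It was 0.16 with normexp background correction, 0.43 without control replicate 3, 1.14 without control replicate 2 and -0.07 without control replicates 1 and 3.

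Next by p came Pcdhb7, Pcdhb9 and Pcdhb20. Pcdhb7 read 0.45, 0.30 and 0.15 on the arrays labelled cKO, against 0.12, -0.05 and 0.22 in control (log2 difference 0.21, 95% interval -0.08 to 0.50). Pcdhb9 read -3.34, -3.73 and -3.85, against -3.84, -3.82 and -3.99 in control (0.25, 95% interval -0.11 to 0.61), so that cKO replicate 1 stood apart from the other 5 arrays. Pcdhb20 read 0.68, 0.99 and 0.57, against 0.55, 0.71 and 0.40 in control (0.19, 95% interval -0.16 to 0.54). Without cKO replicate 1 the Pcdhb9 difference was 0.10, and without cKO replicate 2 that of Pcdhb20 was 0.07. In each of these 3 genes the groups overlapped, and the adjusted p was 0.90, 0.90 and 0.97.

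The remaining 17 beta genes differed by between -0.06 and 0.15, with 15 above 0 and 2, Pcdhb12 and Pcdhb13, below it. Their smallest adjusted p was 0.997, and their intervals reached from -0.51 to 0.58 at the widest. Spearman's rho between a beta probe's position and its log2 difference was -0.01 over 22 probes, which share the same 6 arrays. The first 11 beta probes had a median of 0.08 and the last 11 a median of 0.05. Over the 8 alpha probes outside the constant part, rho was -0.405, with medians of 0.18 for the first 4 and 0.10 for the last 4.

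Gamma cluster probes spanned 178 kb (37823813 to 38001437) and had a median difference of -0.0012, with 3 of 7 above 0. The groups overlapped for all 7. Among the A and B types, named after the similarity of their own exons, Pcdhga10 read -2.90, -2.46 and -3.14 on the arrays labelled cKO, against -3.16, -2.96 and -3.07 in control (log2 difference 0.23, 95% interval -0.21 to 0.66). Here cKO replicate 2 was the highest, without which the difference was 0.04, and cKO replicate 3 lay between control arrays, without which it was 0.38. Pcdhga5, a dim probe that failed the background flag on control replicate 3, read -4.96, -5.36 and -5.22, against -5.13, -5.38 and -5.86 in control (0.28, 95% interval -0.21 to 0.77). Its difference was 0.09 with normexp, 0.08 without control replicate 3 and 0.44 without control replicate 1. Pcdhgb1 read -2.73, -3.29 and -2.87, against -3.24, -3.05 and -2.93 in control (0.11, 95% interval -0.29 to 0.52). For Pcdhgb1 the arrays labelled cKO held both the highest and the lowest value, and the remaining own exon probe, Pcdhga1, had a difference of -0.01.

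The single C type of the gamma cluster with a member probe was Pcdhgc5. It read -2.51, -2.43 and -2.64 on the arrays labelled cKO, against -2.53, -2.47 and -2.34 in control. The values interleaved, and the log2 difference was -0.08 (95% interval -0.33 to 0.17). Pcdhgc4, known for its part in the survival of cortical interneurons, had no member probe and was not analysed here.

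Both probes named Pcdhga9, at 37999725 to 37999784 and at 38001378 to 38001437, were called constant in the gamma cluster. Their accessions name Pcdhga1, Pcdhga5, Pcdhga6 and Pcdhga9. The probe nearer the end read 5.81, 5.71 and 5.59 on the arrays labelled cKO, against 5.74, 5.64 and 5.74 in control. Its means were 5.70 ± 0.11 on arrays labelled cKO, against 5.71 ± 0.06 in control (SD, n = 3 each), a difference of -0.0012 with a 95% interval of -0.24 to 0.24. As a fold change, that interval ran from 0.85 to 1.18. The other constant probe read 0.82, 1.04 and 0.63, against 0.79, 1.01 and 1.09 in control (log2 difference -0.13, 95% interval -0.47 to 0.20).

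**Figure D3:**
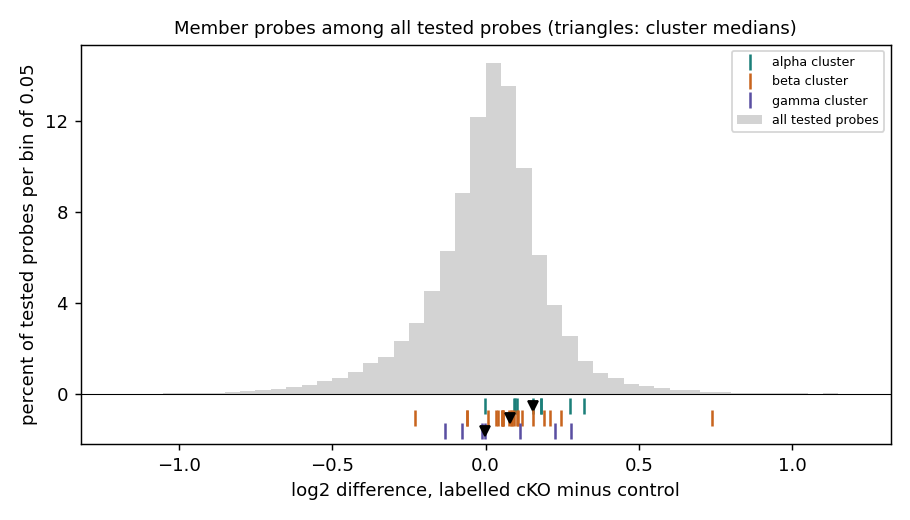
Percent of all 50030 tested probes (y axis) by log2 difference between the arrays labelled cKO and control (x axis, shown from -1.2 to 1.2, bins of 0.05), with ticks for the member probes of each cluster under the bars and triangles for cluster medians. The members lie in the central part of the distribution, with medians of 0.15 (alpha), 0.08 (beta) and -0.0012 (gamma), and Pcdhb11 at 0.74 is the farthest tick.

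Beta probes differed between arrays of the same group together. Relative to each probe's control mean, the beta median was 0.13, 0.16 and -0.02 in cKO replicates 1, 2 and 3, and 0.04, 0.10 and -0.14 in control replicates 1, 2 and 3. Among the control arrays, replicate 3 was the lowest for 16 of 22 beta probes, where it was the lowest for 28.5% of all tested probes. Among the arrays labelled cKO, replicate 3 was the lowest for 15 of 22, where it was the lowest for 26.3% of all tested probes. For alpha the same counts were 5 of 9 in control and 6 of 9 in the arrays labelled cKO, and for gamma 1 of 7 and 4 of 7.

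This spread within groups was as large as the difference between them for beta. The alpha median was 0.23, 0.26 and 0.10 in cKO replicates 1, 2 and 3, each above the control values of 0.07, 0.04 and -0.09. The gamma median was 0.11, 0.02 and -0.08 in the arrays labelled cKO, inside or close to the control range of -0.08 to 0.07. Without control replicate 3 the beta median difference was -0.01 in place of 0.08, and the alpha median was 0.08 in place of 0.15. Without control replicate 2 they were 0.12 and 0.16.

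**Figure D4:**
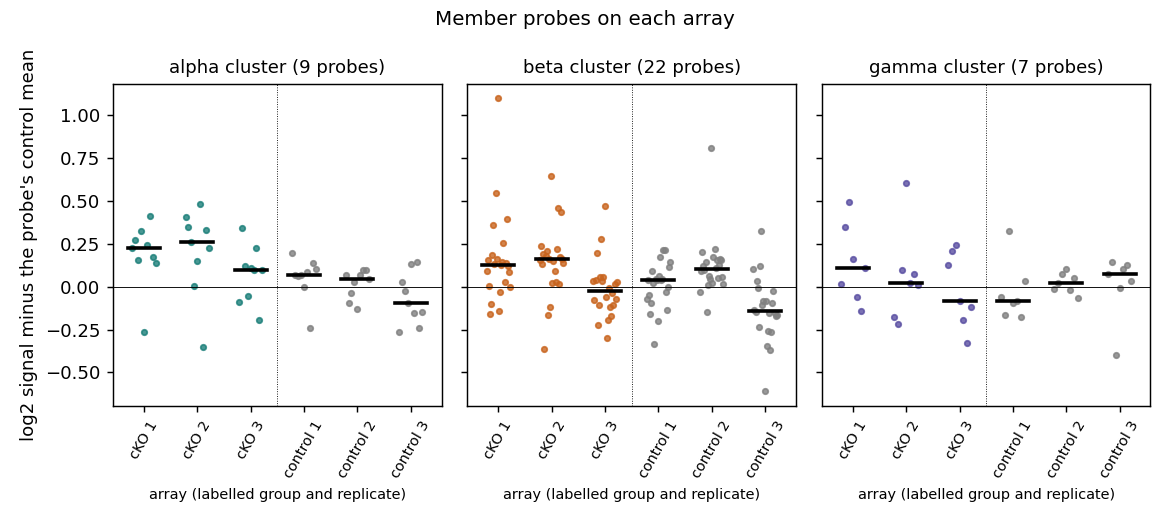
Log2 signal of each member probe minus its control mean (y axis) on each of the 6 arrays (x axis), by cluster, with a black line at the median. In beta, replicate 3 has the lowest median in both groups (-0.02 for cKO and -0.14 for control), and the alpha medians of the arrays labelled cKO (0.10 to 0.26) lie above those of control (-0.09 to 0.07). The medians over all tested probes, from -0.04 to 0.06 on the 6 arrays, were not subtracted.

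All 6 arrays lay on 1 slide, and rows 1 and 2 held 1 array of each group. Within row 1 (cKO replicate 2 minus control replicate 1) the median difference was 0.19 for alpha, 0.10 for beta and -0.03 for gamma. Within row 2 (cKO replicate 3 minus control replicate 2) it was 0.05, -0.15 and -0.05. Of 38 members, 26 were higher on the array labelled cKO in row 1 and 15 in row 2. The direction of the beta cluster therefore differed between rows, and these pairs also differ in slide column and, in row 1, in Y-linked signal.

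No other probe in the same stretch of chromosome 18 passed either. Between the first alpha and the last gamma probe, 8 tested probes carried other names, and their differences lay between 0.06 and 0.19 with adjusted p of at least 0.98. One of them, without a gene symbol in the files, lies at 37249678 to 37249737, just before the Pcdhac1 probe at 37249950 to 37250009, and had a difference of 0.09, where that of Pcdhac1 was 0.10. Another without a gene symbol lies at 37154455 to 37154514, past both Pcdha8 probes. Its difference was 0.09 (95% interval -0.15 to 0.33) and its groups overlapped, where the Pcdha8 probes differed by 0.32 and 0.18. Gm10545, on the strand opposite to the alpha isoforms next to Pcdha11, had a difference of 0.19 (95% interval -0.17 to 0.55). Taf7, a subunit of the general transcription factor TFIID whose gene lies between the beta and gamma clusters, had 2 probes with differences of 0.12 and 0.15. Of 16 genes that flank or lie within the clusters, 0 passed over all probes, where 0% of all tested probes passed. At an unadjusted p under 0.05 stood 0 of the 16 in either direction, beside 6.8% of all tested probes. The 4 with the smallest p differed by 0.16 (Wdr55), 0.14 (Hars, a histidyl tRNA synthetase gene), 0.16 (Fchsd1) and -0.28 (Cd14, a receptor subunit for bacterial lipopolysaccharide).

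Factors that set protocadherin choice did not pass either, where 0% of all tested probes passed. Of 22 genes for looping, DNA methylation and silencing, all were tested and 0 passed. At an unadjusted p under 0.05 stood 0 of the 22 in either direction, beside 6.8% of all tested probes. The median difference of the 22 was 0.06, beside 0.02 over all tested probes. Rest, a repressor of neuronal genes, read -1.63, -1.83 and -1.64 on the arrays labelled cKO, against -1.50, -1.54 and -1.37 in control (log2 difference -0.23, adjusted p = 0.77). All 3 arrays labelled cKO were below every control array for Rest, where 5.87% of all tested probes were lower without overlap. Of the 22 genes, 3 did not overlap (2 higher and 1 lower), beside 12.7% of all tested probes. The cohesin regulator Pds5a differed by -0.17 and the DNA methyltransferase gene Dnmt1 by 0.14. Ctcf, the looping factor of the clusters, read 1.02, 1.63 and 1.62, against 1.48, 1.43 and 1.62 in control. Its difference of -0.09 came with a lower value in cKO replicate 1 alone; Ctcf was added for its role after its values were seen.

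Of 22 binding partners, kinases and cleavage enzymes of protocadherin proteins, 0 passed, where 0% of all tested probes passed. At an unadjusted p under 0.05 stood 0 of the 22 in either direction, beside 6.8% of all tested probes. The median difference of the 22 was 0.05. Adam17, a membrane protease, had the most extreme difference at -0.59 (adjusted p = 0.81), followed by the kinase gene Prkca at -0.29. Abi1, a subunit of the actin regulating WAVE complex, differed by 0.19 and the beta catenin gene Ctnnb1 by 0.15.

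Protocadherins outside the clusters, which lie singly in the genome, spread more widely. Of 10 such genes, 0 passed over all probes, while at an unadjusted p under 0.05, 3 were higher (Pcdh10 at 0.47, Pcdh19 at 0.41 and Pcdh8 at 0.36) and 1 was lower (Pcdh20 at -0.93), beside 2.9% and 3.9% of all tested probes. No test of the difference between the families was made.

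Markers of several cell types moved with the groups in the same arrays. Relative to the control mean, the mean over 12 astrocyte markers lay between -0.61 and -0.41 on arrays labelled cKO, against -0.03 to 0.03 in control, with 12 of 12 lower. For 12 oligodendrocyte lineage markers the ranges were -0.62 to -0.37 and -0.02 to 0.04, with 11 of 12 lower, and for 10 microglial markers -1.0 to -0.32 and -0.07 to 0.04, with 10 of 10 lower. For 12 inhibitory interneuron markers they were -0.44 to -0.19 and -0.06 to 0.08, with 12 of 12 lower. All markers of these 4 lists were well above background on every array. The mean of 10 immature neuron markers lay between 0.06 and 0.26 on arrays labelled cKO, against -0.18 to 0.28 in control, and that of 10 excitatory neuron markers between -0.11 and 0.08, against -0.08 to 0.05. The excitatory markers went both ways, with 5 higher and 5 lower. Groups did not overlap for 4 of 10 of them, beside 12.7% of all tested probes. That count was 11 of 12 for astrocyte and 6 of 10 for microglial markers, all lower. For oligodendrocyte lineage markers it was 8 of 12, with 7 lower and 1, Mbp (0.16), higher. It was 3 of 12 for inhibitory interneuron and 3 of 10 for immature neuron markers. The mean of 5 tested thalamus markers lay between -0.25 and -0.17 on arrays labelled cKO, against -0.04 to 0.06 in control, with 5 of 5 lower. Groups did not overlap for 2 of the 5, Rora (-0.52) and Slc17a6 (-0.35). They overlapped for Prkcd, Lhx9 and Tcf7l2, with differences of -0.13, -0.09 and -0.0044. Median differences of the other lists were -0.06 for endothelium and mural cells, -0.42 for meninges and choroid plexus and -0.29 for striatum. In each of these the list means overlapped between groups. For meninges and choroid plexus they ran from -1.06 (cKO replicate 2) to 0.0002, against -0.18 to 0.14 in control. For striatum they ran from -0.48 to -0.20, against -0.28 to 0.54 (control replicate 3). For endothelium and mural cells they ran from -0.17 to 0.0082, against -0.11 to 0.10. The part of these shifts in the protocadherin values was not tested.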

How the data were processed

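The members and gene lists were chosen with earlier results of these data known. Per the file headers, the deposited scanner files hold intensities of 1-colour (Cy3) Agilent arrays from Feature Extraction 10.5.1.1, with the processed signal detrended and background-subtracted but not normalized between arrays; the flags for well above background and outlier spots are 0 or 1 per spot. The authors' series matrix holds log2 values whose scale and centring are not given in the sources used here. It matched quantile-normalized log2 signals centred on each probe's median (95% of values within 0.00235; column medians -0.0064 to 0.00645), and was an alternative. Tests ran on log2 of the processed signal, scaled by subtracting the 75th percentile of its array, outlier-flagged spots left out and spots of 1 probe averaged. No member lost an array this way. Probes well above background on at least 3 arrays were tested with limma 3.58.1 (R 4.3.3), as a two-sided test, p-values being adjusted by Benjamini-Hochberg across the 50030 probes and a threshold of 0.05. Probes and not genes were tested, since constant exon probes belong to no single isoform. A probe was called constant where its accessions name at least 3 isoforms of the cluster, and exon annotation was not used. List genes took their brightest tested probe. Names came from RefSeq GRCm38.p6, which holds all 35 member names, and positions are given as the files state them, on mm9. Isoforms of a cluster are similar in sequence, and binding of a probe to its neighbours was not tested. Members named with values are, per cluster, the 5 smallest p and the most extreme difference in each direction, all C types and all constant exon probes; of each list, the 4 smallest p, of which 1 gene is not reported here. Genes outside this rule that are named (such as Ctcf, Taf7, Gm10545, Pcdha9) were picked with their values in view. Alternatives were other scalings, background corrections, filters, units, variance models, terms for slide row or Y-linked signal, and each array left out. The deviations of same-numbered arrays from their group means correlated at -0.17, 0.07 and 0.16. With so few arrays these values cannot exclude that the numbers pair the samples, and the main test used no pairing.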

Additional observations from a re-analysis of the deposited data

How the results depend on the processing

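In all 22 alternatives, 0 member probes passed the threshold, with a smallest adjusted p between 0.16 (array weights) and 1.0, and 0 to 2 members had an unadjusted p under 0.05. With array weights 18 members were higher and 20 lower, in place of 30 and 8. With the Y-linked term 26 were higher and 12 lower, and without the 2 arrays with Y-linked signal 23 and 15. The alpha median stayed above 0 in each, between 0.08 and 0.21. The beta median lay between -0.02 and 0.12, at -0.02 with array weights, -0.02 without the 2 arrays with Y-linked signal and -0.01 without control replicate 3. The gamma median lay between -0.03 and 0.07, and its sign changed with single arrays. With the replicate block, 0 members and 0 of all probes passed, the same as without it. Over all probes, 0 passed in the main setting; the count was 1 with quantile normalization, 1 with the authors' matrix, 1 with a filter on all 6 arrays, 2 at gene level by brightest probe or mean, 2 with the Y-linked term, 10 with median centring, 92 and 85 with normexp under percentile and quantile scaling, 118 with an intensity trend and robust variances and 120 with array weights, and 0 to 10 without 1 array. The Lhx2 probe passed with normexp (1.097 and 1.072), with the trend (1.105) and with array weights (1.194). Signs turned for Pcdha11 with normexp (0.0058), array weights (0.11), the row term (0.025), the Y-linked term (0.10) and without the Y-linked arrays (0.13), and between -0.076 and 0.13 without 1 array; Pcdha4 (-0.042) and Pcdhac2 in its own exon (-0.13) with array weights; the brighter constant gamma probe, named Pcdhga9, with the Y-linked term (0.067) and without those arrays (0.067); and Pcdhb11 without those arrays (-0.070). Without 1 array, Pcdhb7 ranged from 0.13 to 0.29, the constant alpha probe named Pcdhac2 from 0.08 to 0.21, Pcdhgc5 from -0.13 to -0.02 and the dimmer constant gamma probe named Pcdhga9 from -0.24 to -0.035. Pcdhac1 ranged from -0.063 to 0.32, Pcdhac2 in its own exon from -0.018 to 0.25, Pcdhgb1 from -0.0045 to 0.28 and the brighter Pcdhga9 probe from -0.056 to 0.058. The cause was not tested. The number of arrays limits precision, and the dim probes of Pcdhb11 and Pcdhga5 have the least signal over background.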
